A study of Argyrosomus regius with 12 samples.

Results

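The 150 Trinity genes with the most isoforms were examined in the spleen of meagre (Argyrosomus regius), a marine bony fish. A Trinity gene is a set of assembled transcripts that share the gene part of a Trinity identifier, and each member transcript is called an isoform. The transcripts of the count table were counted per Trinity gene, and the 150 with the highest number were taken, with ties settled by the higher summed count. They are 150 of 42480 Trinity genes (0.353%) and hold 4135 of 58975 transcripts (7.01%). The last gene inside the limit, TRINITY_DN248_c0_g1, had 16 isoforms and 36507 counts in all, and the first outside, TRINITY_DN1139_c0_g1, had 16 isoforms and 35884 counts. Of the 31 Trinity genes with 16 isoforms, 9 are members. The rule used no difference between groups. It did use the number of isoforms, and the other genes with several isoforms mostly have fewer. Contrasts with those genes in isoforms at 0, main share, most abundant isoform and switches therefore follow in part from the rule.

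An assembler such as Trinity joins overlapping reads into a graph and writes out the paths through it. Paths of 1 graph can come from alternative splicing, alternative starts or ends, alleles, near-identical gene copies or assembly errors, and the labels of the paths do not tell these apart. The spleen of bony fish is a main organ of immune cells and blood filtering, and LPS, a component of the outer membrane of Gram-negative bacteria, is a widely used trigger of inflammatory gene expression. In immune cells, stimulation can change both how much RNA a gene gives and which isoform is made.

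Juveniles of 22 g kept at 22 °C were injected into the body cavity with phosphate-buffered saline (PBS) or with LPS of Photobacterium damselae subsp. piscicida at 10 µg per g of fish. Spleens were taken after 4 h and after 24 h. Each of the 4 groups (PBS 4 h, LPS 4 h, PBS 24 h and LPS 24 h) had 12 fish in 3 pools of 4, and each pool gave 1 library, so the replicates are pools of separate fish. Whole spleens were used, so fewer cells of a type and less RNA per cell cannot be told apart. Gene names were not at hand for the Trinity identifiers, so no function is given to a member, and markers of the spleen could not be looked up. No sequence of an isoform was at hand, so none is printed.

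Library totals ran from 29614365 to 56556752 counts, and the members took 1.21% to 1.67% of them. LPS 4 h replicate 2 stood apart from the other pools of its group. Over the log2 levels of all 32542 gene sums tested, its root mean square distance to LPS 4 h replicates 1 and 3 was 0.757 to 0.804, while those pools were 0.489 apart. Its distance to the 9 pools of the other groups was 0.39 to 0.560, against 0.786 to 0.959 for LPS 4 h replicates 1 and 3. Counts of calls, of non-overlapping groups and of switches at 4 h are therefore given with and without it. It was singled out by the closeness of these same gene sums to the other groups. Stronger LPS effects at 4 h without it follow in part from that choice, so p-values without it are descriptions.

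The members had 16 to 96 isoforms, with a median of 23. There were 13 members with at least 50 isoforms, 90 with 20 to 49 and 47 with 16 to 19. The 3 with the most were TRINITY_DN1_c0_g1, TRINITY_DN8_c0_g1 and TRINITY_DN98_c0_g1. Most of their isoforms carried few or no counts. Of the 4135 member isoforms, 1100 (26.6%) were at 0 counts in every pool, against 883 of 16827 (5.25%) isoforms of the other genes with several isoforms. Counts in all 12 pools were found for 607 (14.7%), against 47.7% in the other such genes, and 433 (10.5%) had counts in 1 pool only, against 3.46%. Each pool held counts for 1532 to 1766 member isoforms, and the highest number came from the deepest library, LPS 24 h replicate 3. These are the estimates of a program that divides reads among transcripts that share sequence, so a 0 is also such an estimate.

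The sums over all isoforms, called gene sums here, had a median of 39.8 CPM (counts scaled to a common library size) over the 12 pools and ran from 0.636 to 1346 CPM. Shares of a gene sum are shares of counts and are not corrected for isoform length, which the files do not give. A share is therefore compared for the same isoform between pools and not between isoforms as a molar amount. The other multi-isoform genes had a median of 18.2 CPM.

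In most members no isoform held the majority of the counts. The main isoform, the one with the highest mean share over the 12 pools, held a median of 44.4% of the gene sum in the 149 members with a mean of at least 1 CPM. It ran from 14.9% to 98.6% and was above 50% in 61 of 149 members. In the other multi-isoform genes the median was 78.5%, and a higher value there follows in part from their smaller number of isoforms. A member's counts were spread as if over 4.25 equally used isoforms at the median. This effective number is the exponential of the Shannon entropy of the shares in each pool, averaged over the 12 pools. By mean shares, 90% of the gene sum lay in a median of 6 isoforms and at most 17. The member count of isoforms and the effective number were only weakly related, with a Spearman's rho of 0.24 across 149 genes, which share the same 12 libraries.

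A main share that was steady from pool to pool was found in members near both ends of this range, but not in all of them. TRINITY_DN30_c0_g1, with the lowest mean share of 14.9%, ran from 8.28% to 23.4%. TRINITY_DN137_c0_g1 kept 97.2% to 99.4% of its counts in isoform i12 in the 12 pools. TRINITY_DN2183_c0_g1 had an effective number of 12.9 isoforms, and its main isoform i10 held 14.2% to 16.5% in every pool. Its gene sum varied widely over the same pools, with 442, 1445 and 180 CPM in PBS 4 h replicates 1 to 3, 1031, 250 and 758 in LPS 4 h, 769, 369 and 1873 in PBS 24 h and 460, 311 and 275 in LPS 24 h. The highest and lowest sums of PBS 4 h thus bracketed those of all LPS pools, while the share of i10 hardly moved. Still, 2 isoforms of this gene took the first place in some pool, and shares of its other isoforms were not examined. These 3 genes were picked after their values were seen.

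The members with the highest gene sums are a steady and a changing case of the main isoform's share. In TRINITY_DN710_c1_g1 the gene sum ran from 751 CPM in PBS 24 h replicate 1 to 1816 CPM in LPS 4 h replicate 1, and isoform i12 held 49.0% to 56.5% of it in all 12 pools. TRINITY_DN303_c0_g1 had 1137, 998 and 1160 CPM in PBS 4 h and 2415, 1318 and 2249 CPM in LPS 4 h. Its isoform i8 stood at 575, 467 and 488 CPM in PBS 4 h and at 586, 477 and 523 CPM in LPS 4 h. The gene sum of LPS 4 h replicates 1 and 3 was thus higher than in any other pool, while the level of i8 there lay inside its range in the other groups. The share of i8 was 50.5%, 46.8% and 42.1% in PBS 4 h and 24.3%, 36.2% and 23.2% in LPS 4 h. Counts outside i8 averaged 588 ± 73.7 CPM in PBS 4 h and 1465 ± 543 CPM in LPS 4 h (SD, n = 3). Neither the gene sum (log2 fold change 0.87 ± 0.24 (SE), adjusted p = 0.099 by edgeR's quasi-likelihood test with Benjamini-Hochberg adjustment) nor the main isoform share (adjusted p = 0.574 by limma) passed at 4 h. Without LPS 4 h replicate 2 the gene sum passed (1.10 ± 0.20, adjusted p = 0.00226 by edgeR) and the share did not (adjusted p = 0.298 by limma).

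**Figure D1:**
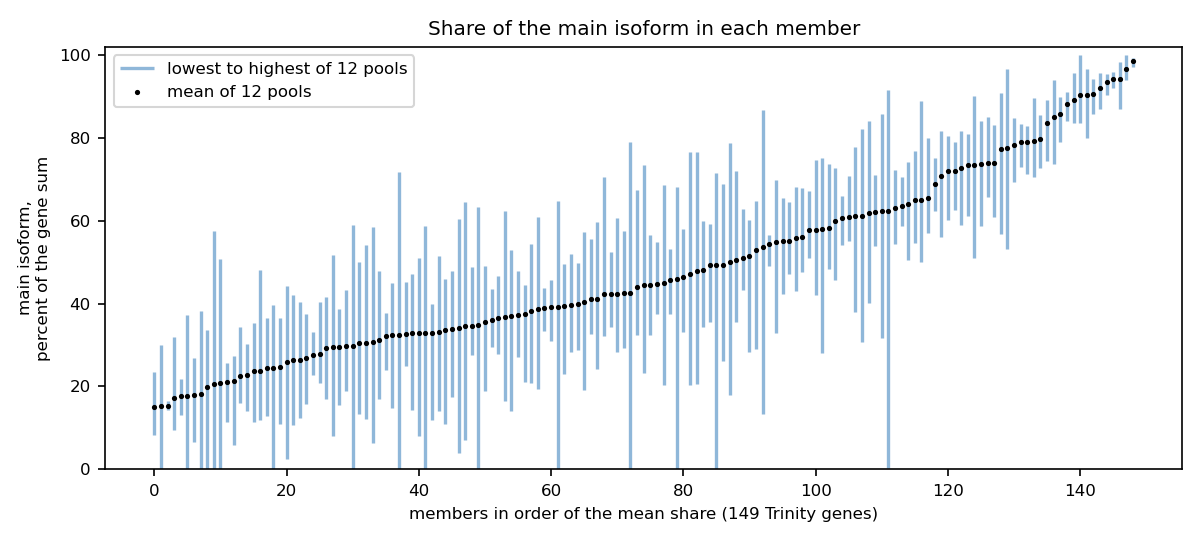
The y axis gives the share of the main isoform in percent of the gene sum for 149 members, ordered on the x axis by their mean share. Points are means of 12 pools and bars run from the lowest to the highest pool, and a median bar spans 24.9 percentage points.

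Between the ends, the main isoform's share often differed widely among pools. The difference between its highest and lowest pool had a median of 24.9 points, against 21.4 points in the other multi-isoform genes. It was below 10 points in 10 members, 10 to 30 points in 77, 30 to 50 points in 41 and at least 50 points in 21. The widest was TRINITY_DN271_c0_g1, whose isoform i21 held 85.5%, 84.7% and 89.9% in PBS 4 h but 39.3%, 0.443% and 61.3% in LPS 4 h. In the later groups it held 87.8%, 62.2% and 87.7% (PBS 24 h) and 0.374%, 58.8% and 91.6% (LPS 24 h). Single pools of both LPS groups were near 0, and the others of those groups were not.

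The same isoform was the most abundant in all 12 pools in 65 of 149 members (43.6%), against 66.6% of the other multi-isoform genes. In 19 members, 4 or more isoforms took the first place in some pool. Agreement on the most abundant isoform did not follow the groups. Pairs of pools within a group agreed on 72.5% to 76.5% of the 149 members as group means, and pairs from different groups on 71.5% to 74.5%. LPS 4 h replicates 1 and 3 agreed on 111 members, and replicate 2 had the same first isoform as them in 100 and 114.

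Presence and absence also varied by pool. Of the 1565 member isoforms that reached 1 CPM in some pool, 975 (62.3%) were at 0 counts in at least 1 other pool, and they came from 147 of the 150 members. In the other multi-isoform genes the share was 33.3%. Of the 975, 151 were at 0 in 1 pool, 406 in 2 to 5 pools, 389 in 6 to 10 pools and 29 in 11 pools. Each pool had 351 to 443 of them at 0, and the lowest number was again in the deepest library.

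The most extreme cases were 25 isoforms in 15 members that were at 0 in at least 1 pool and held at least 50% of their gene sum in another, a limit chosen, like the examples, after the data were seen. Their gene sums averaged 1.41 to 145 CPM, so some rest on few counts. In the other multi-isoform genes the same rule gave 860 of 16827 isoforms, in 521 genes, against 25 of 4135 member isoforms. Such isoforms were thus a smaller part of the member isoforms, but members have more isoforms per gene and only a few can reach 50%. Counted by genes with a mean of at least 1 CPM, it was 15 of 149 members against 521 of 3929 other genes. For 18 of the 25, both states occurred within 1 group, that is, among pools of fish with the same treatment and time. One isoform, TRINITY_DN154_c0_g1_i6, was at 0 in every pool of a whole group, and this held for LPS 4 h and LPS 24 h. It was also at 0 in PBS 4 h replicates 1 and 2 and in PBS 24 h replicate 3.

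In TRINITY_DN437_c0_g1, with gene sums of 9.07 to 18.7 CPM, isoform i10 held 0%, 66.0% and 79.2% in PBS 24 h and isoform i11 held 72.8%, 0% and 0% there. In LPS 24 h, i10 held 59.4%, 0% and 32.2% and i11 held 0%, 73.6% and 24.4%. In 5 of these 6 pools 1 isoform of the pair was at 0. TRINITY_DN67_c0_g1, at 40.9 to 103 CPM, had such a pair in PBS 4 h, where i14 held 59.4%, 62.7% and 0% and i9 held 0%, 0% and 62.3%. Pools of 1 group therefore took opposite states. Whether such pairs are alleles, splice forms or a different division of shared reads was not tested.

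**Figure D2:**
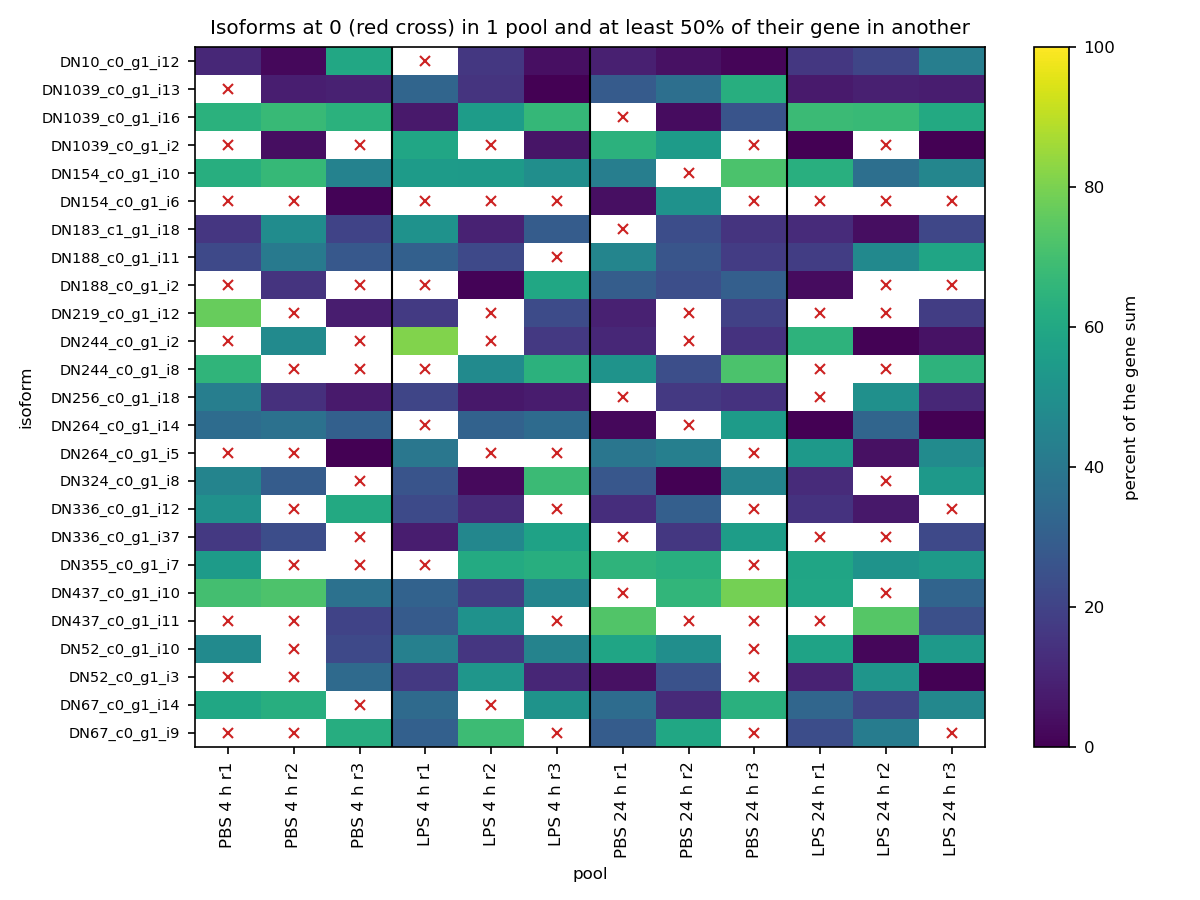
Each row is 1 of the 25 isoforms at 0 in a pool and at 50% or more of the gene sum in another, each column is a pool, and colour gives the share of the gene sum in percent. Red crosses mark 0 counts, and they lie within as well as between groups, with 18 isoforms showing both states inside 1 group.

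At 24 h, 4 of the 150 members had a higher gene sum under LPS and none a lower one by edgeR's quasi-likelihood test at an adjusted p below 0.05. All 32542 gene sums were tested together, and 3.25% of them were called, 2.98% higher and 0.273% lower. In this comparison 33 members (22%) had an unadjusted p below 0.05, 22 of them higher and 11 lower. Among all 32542 gene sums it was 19.1%, with 3417 higher and 2810 lower. The median log2 fold change of the members was 0.00, against -0.08 for all gene sums, and 75 members lay on each side of 0.

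The largest rise at 24 h was in TRINITY_DN49_c0_g1, with 26 isoforms. Its gene sum was 30.7, 25.7 and 19.0 CPM in PBS 24 h and 198, 274 and 350 CPM in LPS 24 h. At 4 h it was 105, 139 and 165 CPM in PBS and 297, 202 and 614 CPM in LPS. The groups did not overlap at either time, and the PBS 24 h pools were the lowest of all 12. The log2 fold change was 3.44 ± 0.41 (SE) at 24 h, with an adjusted p of 0.00389 by edgeR. At 4 h it was 1.46, with an adjusted p of 0.0932 by edgeR, and 1.76 with an adjusted p of 0.00356 without LPS 4 h replicate 2.

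TRINITY_DN570_c0_g1, with 24 isoforms, had gene sums of 173, 139 and 130 CPM in PBS 24 h and 588, 616 and 725 CPM in LPS 24 h. It stood at 354, 240 and 271 CPM in PBS 4 h and 733, 230 and 874 CPM in LPS 4 h. Again the PBS 24 h pools were the lowest, and LPS 4 h replicate 2 lay below all 3 PBS pools of its time. The log2 fold change at 24 h was 2.12 ± 0.39 (SE) with an adjusted p of 0.0138 by edgeR.

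The other called members were TRINITY_DN243_c0_g1 and TRINITY_DN302_c0_g1. TRINITY_DN243_c0_g1 had 67.2, 42.6 and 48.3 CPM in PBS 24 h and 109, 164 and 140 CPM in LPS 24 h, without overlap (log2 fold change 1.38 ± 0.24, adjusted p = 0.0104 by edgeR). TRINITY_DN302_c0_g1 had 57.1, 63.8 and 70.4 CPM in PBS 24 h and 172, 89.97 and 168 CPM in LPS 24 h (1.16 ± 0.29, adjusted p = 0.0498 by edgeR). The last lies close to the threshold. Leaving out PBS 24 h replicate 2 or 3 or LPS 24 h replicate 3 left 1 member called (0.087%, 0.917% and 0.505% of all gene sums). Leaving out LPS 4 h replicate 3 gave 7 (3.81%), and leaving out LPS 4 h replicate 2 gave 14 (6.14%).

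**Figure D3:**
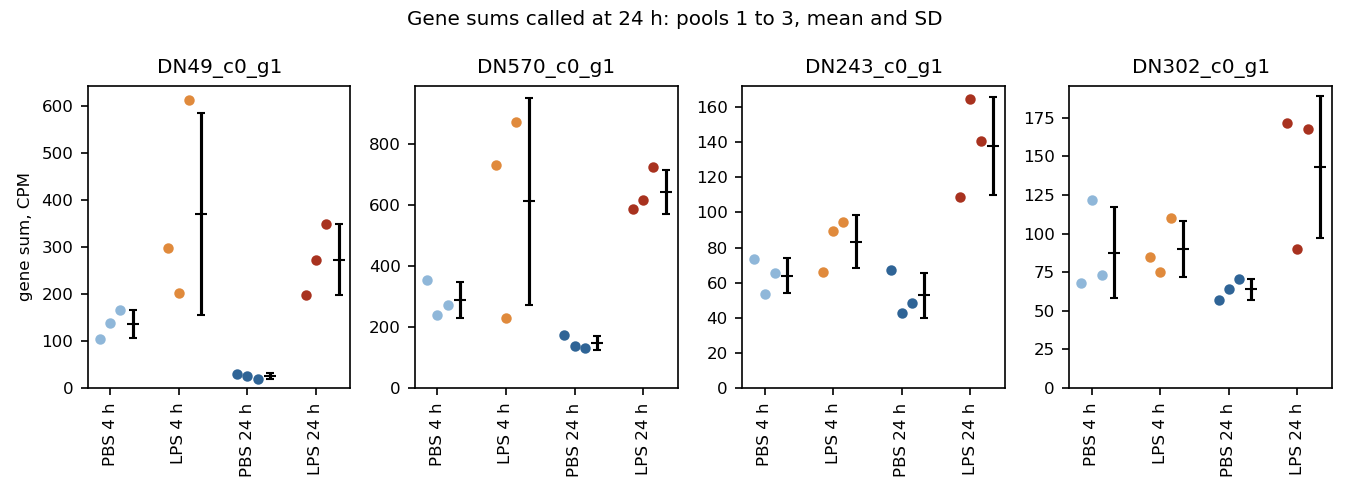
Gene sums in CPM (linear y axes from 0) of the 4 members called at 24 h, with 1 point per pool in the order of replicates 1 to 3 and the mean with SD (n = 3) beside them. In every panel the 3 LPS 24 h pools lie above the 3 PBS 24 h pools, and LPS 4 h replicate 2 lies below the other LPS 4 h pools in 3 of the panels.

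On the lower side at 24 h, no member passed. The lowest p-values were those of TRINITY_DN1259_c0_g2, with 48.6, 51.0 and 65.8 CPM in PBS 24 h and 41.2, 34.9 and 33.7 CPM in LPS 24 h (log2 fold change -0.60, adjusted p = 0.0811 by edgeR), and TRINITY_DN1124_c0_g1, with 52.7, 41.3 and 48.9 CPM against 27.3, 28.9 and 29.0 CPM (-0.75, adjusted p = 0.128 by edgeR). Pools of the groups did not overlap in either. Such a separation was found for the gene sums of 50 of the 150 members at 24 h (33 higher and 17 lower), for 35 at 4 h (20 higher and 15 lower) and for 18 between the 2 PBS groups. These are 33.3%, 23.3% and 12% of members. Over all gene sums tested it was found for 26.4%, 18.3% and 14.3%, and in the other multi-isoform genes of at least 1 CPM for 33.1%, 18.3% and 14.9%. Without LPS 4 h replicate 2 it was found at 4 h for 98 of the 149 members of at least 1 CPM (65.8%). Among all 4075 multi-isoform genes of that level it was then 54.8%, and 2 pools overlap with others less easily than 3. An exact permutation test of 3 pools against 3 cannot go below p = 0.1, so such a separation is a description.

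At 4 h no member was called for its gene sum by edgeR, and 0.00307% of all gene sums were. There were 45 members with an unadjusted p below 0.05 (30%), 35 of them higher and 10 lower. Among all 32542 gene sums it was 19.7%, with 3779 higher and 2628 lower. DESeq2 called 18 members (12%), with 7.31% of all gene sums called. When LPS 4 h replicate 2 was left out, edgeR called 53 members (35.3%), 32 higher and 21 lower. Of all gene sums it then called 22.2%, 11.1% higher and 11.2% lower. With any other single pool left out, no member was called. The 32 had a median log2 fold change of 1.12 (from 0.61 to 2.74), and the 21 had a median of -0.74 (from -2.14 to -0.50). LPS 4 h replicate 2 itself lay within the range of the PBS 4 h pools in 17 of the 32 and in 7 of the 21, and on the same side of the PBS mean as the other LPS 4 h pools in 21 and 13.

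TRINITY_DN52_c0_g1 and TRINITY_DN80_c0_g1 had the lowest p-values on the higher side at 4 h. TRINITY_DN52_c0_g1 had 8.33, 4.18 and 8.35 CPM in PBS 4 h and 27.7, 15.9 and 29.8 CPM in LPS 4 h (log2 fold change 1.83, adjusted p = 0.0904 by edgeR). TRINITY_DN80_c0_g1 had 38.1, 44.5 and 48.2 CPM against 171, 65.8 and 180 CPM (1.68, adjusted p = 0.0904 by edgeR). In both, all LPS pools lay above all PBS pools and replicate 2 was the lowest LPS pool. Without it the values were 2.06 (adjusted p = 0.000764) and 2.02 (adjusted p = 1.95e-05) by edgeR.

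On the lower side, TRINITY_DN248_c0_g1 had 91.0, 76.8 and 89.6 CPM in PBS 4 h and 46.1, 63.7 and 55.7 CPM in LPS 4 h (log2 fold change -0.63, adjusted p = 0.129 by edgeR). TRINITY_DN203_c0_g1 had 74.9, 57 and 123 CPM against 48.7, 47.7 and 32.3 CPM (-0.97, adjusted p = 0.130 by edgeR). Without LPS 4 h replicate 2 the first passed (adjusted p = 0.0249 by edgeR) and the second did not (adjusted p = 0.0547). Of the 3 members with the most isoforms, TRINITY_DN8_c0_g1 had an adjusted p of 0.0246 by edgeR without that replicate, with 31.0, 33.3 and 30.1 CPM in PBS 4 h and 22.3, 31.1 and 20.3 CPM in LPS 4 h. TRINITY_DN1_c0_g1 and TRINITY_DN98_c0_g1 did not pass (adjusted p = 0.124 and 0.0608).

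For single isoforms, 1619 of the 4135 member isoforms passed the expression filter and were tested together with all 42308 transcripts that passed it. At 24 h edgeR called 11 of them, 10 higher and 1 lower, from 5 members. Of all transcripts 1.77% were called, 1.68% higher and 0.0945% lower, and 176 member isoforms had an unadjusted p below 0.05, against 15.5% of all transcripts. Of the 10, 5 belonged to TRINITY_DN49_c0_g1 and 3 to TRINITY_DN570_c0_g1, so they are not independent. At 4 h it called 0 member isoforms and 0.0% of all transcripts, with 175 at an unadjusted p below 0.05 (10.8%, against 15.8% of all transcripts). DESeq2 called 69 (4.26%), against 6.0% of all transcripts. When LPS 4 h replicate 2 was left out, edgeR called 92 of 1839 member isoforms at 4 h and 14.5% of all transcripts.

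In TRINITY_DN49_c0_g1 the called isoforms rose at 24 h with the gene. Isoform i2 was at 4.60, 0.550 and 4.17 CPM in PBS 24 h and 54.0, 119 and 109 CPM in LPS 24 h (log2 fold change 4.92 ± 0.83, adjusted p = 0.0219 by edgeR). Isoform i17, its main isoform, was at 8.69, 9.18 and 3.98 CPM against 87.9, 86.2 and 156 CPM (3.92 ± 0.48, adjusted p = 0.0127 by edgeR). Isoform i15 was at 10.7, 9.48 and 5.59 CPM against 29.0, 37.6 and 47.2 CPM (2.15 ± 0.44, adjusted p = 0.0425 by edgeR). All pools of LPS 24 h were above all pools of PBS 24 h in the 3 isoforms, and the same held for i20. The share of i15 was 34.7%, 36.8% and 29.5% in PBS 24 h and 14.7%, 13.7% and 13.5% in LPS 24 h, the lowest of the PBS shares lying above the highest of the LPS shares. The edgeR test of isoform usage did not call this gene (adjusted p = 0.147), and called it when LPS 4 h replicate 2 was left out (adjusted p = 0.0477).

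Isoform i1 of the same gene had 0 counts in all 3 PBS 24 h pools and 132, 73 and 283 counts in LPS 24 h, or 3.85, 2.12 and 4.54 CPM (adjusted p = 0.0331 by edgeR). Against a floor of 3 counts in each PBS 24 h library it was at least 41.6-fold higher. It had 42, 58 and 92 counts in PBS 4 h, so it was absent from the estimates of the later controls alone.

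The other isoforms called higher were TRINITY_DN243_c0_g1_i16, which held 85.9% to 94.3% of its gene in every pool, and TRINITY_DN589_c0_g1_i10. The latter was at 12.5, 7.48 and 12.7 CPM in PBS 24 h and 25.9, 46.7 and 38.5 CPM in LPS 24 h, without overlap (log2 fold change 1.76 ± 0.36, adjusted p = 0.0387 by edgeR).

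The isoform called lower at 24 h was TRINITY_DN22_c0_g1_i21. It was at 7.03, 8.03 and 7.69 CPM in PBS 24 h and at 0.0876, 0 and 0.0482 CPM in LPS 24 h, while its gene sum was 80.0, 63.7 and 80.2 CPM against 83.8, 81.1 and 77.1 CPM. The isoform's log2 fold change was -7.28 ± 0.82 (SE), with an adjusted p of 0.0125 by edgeR. The gene sum's was 0.11, with an adjusted p of 0.762 by edgeR. In PBS 4 h and LPS 4 h the isoform ran from 1.68 to 6.61 CPM in the 6 pools, and the groups overlapped. It held 8.79%, 12.6% and 9.60% of the gene in PBS 24 h and at most 0.105% in LPS 24 h. The second lowest p on that side was that of TRINITY_DN160_c0_g1_i20, with 66.6, 73.7 and 99.9 CPM in PBS 24 h and 50.2, 26.4 and 33.9 CPM in LPS 24 h (log2 fold change -1.12, adjusted p = 0.0522 by edgeR).

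At 4 h the isoforms with the lowest p-values were TRINITY_DN19_c0_g1_i45 and TRINITY_DN80_c0_g1_i18 on the higher side and TRINITY_DN355_c0_g1_i1 and TRINITY_DN22_c0_g1_i11 on the lower. TRINITY_DN19_c0_g1_i45 was at 32.6, 31.1 and 35.4 CPM in PBS 4 h and 102, 56.0 and 106 CPM in LPS 4 h (log2 fold change 1.41, adjusted p = 0.173 by edgeR). TRINITY_DN80_c0_g1_i18 was at 2.19, 1.84 and 2.80 CPM against 11.6, 4.55 and 11.1 CPM (1.99, adjusted p = 0.173 by edgeR). Without LPS 4 h replicate 2 both passed, with adjusted p-values of 0.000273 and 0.000383 by edgeR.
TRINITY_DN355_c0_g1_i1 was at 7.13, 20.3 and 27.8 CPM against 4.98, 2.07 and 1.33 CPM (-2.72, adjusted p = 0.173 by edgeR), and TRINITY_DN22_c0_g1_i11 at 40.2, 33.5 and 41.0 CPM against 23.1, 29.98 and 24.2 CPM (-0.57, adjusted p = 0.180 by edgeR).

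The change of an isoform mostly had the sign of the change of its gene sum. Of the 1619 tested, 1122 (69.3%) had a log2 fold change of the same sign as the gene sum at 4 h and 1027 (63.4%) at 24 h. An isoform is part of its gene sum, so a share above 50% follows in part from that. Among the 50 tested isoforms of the 4 members called at 24 h, 41 had the sign of the gene sum, and 0 of the other 9 had an unadjusted p below 0.05 by edgeR.

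The share of the main isoform was tested as the log2 ratio of its counts to those of all other isoforms of the gene, with limma, over 4075 genes with several isoforms. At 24 h 1 of 149 members passed, against 0.172% of all genes tested (0.0491% higher and 0.123% lower), and 17 had an unadjusted p below 0.05, against 9.52% of all genes. At 4 h none passed by limma, against 0.0245%, and 8 members had an unadjusted p below 0.05, against 8.59%. With LPS 4 h replicate 2 left out, 1 member passed at 4 h, against 1.84% of all genes tested.

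The member that passed at 24 h was TRINITY_DN570_c0_g1. Its main isoform i12 held 55.3%, 57.2% and 62.5% of the gene sum in PBS 24 h and 21.8%, 24.3% and 16.4% in LPS 24 h. All LPS pools lay below all PBS pools. The log2 ratio fell by 2.43 (SE 0.33), with an adjusted p of 0.0259 by limma. Its level was not lower: i12 averaged 85.5 ± 8.96 CPM in PBS 24 h and 132 ± 16 CPM in LPS 24 h (SD, n = 3), with a log2 fold change of 0.63 and an adjusted p of 0.392 by edgeR. The sum of all other isoforms averaged 61.9 ± 14.6 CPM and 511 ± 82.8 CPM.

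The called isoforms of TRINITY_DN570_c0_g1 were i8, i9 and i11, and they carried most of that difference. Isoform i8 was at 24.0, 15.4 and 10.0 CPM in PBS 24 h and 147, 165 and 232 CPM in LPS 24 h (log2 fold change 3.46 ± 0.52, adjusted p = 0.0180 by edgeR). Isoform i9 was at 14.8, 10.9 and 8.89 CPM against 198, 130 and 160 CPM, and i11 at 12.1, 9.11 and 4.75 CPM against 82.8, 136 and 181 CPM. The 3 isoforms were each higher in every LPS 24 h pool than in any PBS 24 h pool. At 4 h i12 held 25.5%, 27.9% and 37.1% in PBS and 33.3%, 44.9% and 35.1% in LPS, and the groups overlapped. The PBS 24 h pools thus had the highest shares of i12 and the lowest gene sums of all 12. The limma test of isoform usage called this gene at 24 h (adjusted p = 0.0155), and edgeR's did not (adjusted p = 0.335).

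Leaving out 1 pool of the compared groups, or PBS 4 h replicate 2 or LPS 4 h replicate 1, raised the adjusted p of this shift by limma above 0.05, so that 0 members were called. The log2 ratio ran from -2.58 to -2.22 over all such omissions.

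The other members named by lowest p at 24 h did not pass. In TRINITY_DN160_c0_g1 the main isoform i1 held 65.3%, 62.6% and 61.0% in PBS 24 h and 71.1%, 79.4% and 78.9% in LPS 24 h (adjusted p = 0.239 by limma). In TRINITY_DN1247_c0_g1 i14 held 48.3%, 47.5% and 52.4% against 56.3%, 68.0% and 58.7% (adjusted p = 0.370 by limma). In TRINITY_DN343_c0_g1 i12 held 81.7%, 75.9% and 78.7% against 70.5%, 65.0% and 56.1% (adjusted p = 0.280 by limma). The groups did not overlap in these 3 members, and their gene sums had unadjusted p-values of 0.282, 0.430 and 0.377 by edgeR.

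At 4 h the lowest p-values on the higher side were those of TRINITY_DN116_c0_g1, with i8 at 26.8%, 24.8% and 27.2% in PBS and 36.4%, 37.7% and 45.1% in LPS (adjusted p = 0.525 by limma), and TRINITY_DN290_c0_g1, with i20 at 87.5%, 85.6% and 93.9% against 100%, 90.7% and 99.3% (adjusted p = 0.545 by limma). The latter is the member that passed without LPS 4 h replicate 2 (log2 ratio higher by 5.30, adjusted p = 0.0151 by limma), where its other isoforms were at or near 0 counts. On the lower side, TRINITY_DN5161_c0_g1 had i3 at 71.1%, 74.8% and 79.1% against 62.5%, 65.7% and 64.2% (adjusted p = 0.525 by limma). TRINITY_DN2_c0_g1 had i43 at 26.7%, 39.4% and 51.1% against 7.89%, 31.1% and 13.6% (adjusted p = 0.548 by limma), and in that member the groups overlapped.

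Over all 149 members the main isoform's mean share shifted by a median of 4.82 percentage points at 4 h and 4.87 points at 24 h, in either direction. Between the 2 PBS groups the median was 3.91 points. Shifts of at least 10 points were found in 34 members at 4 h (16 up and 18 down), in 40 at 24 h (23 up and 17 down) and in 30 between the PBS groups. These are 22.8%, 26.8% and 20.1% of members, against 22.2%, 21.8% and 16.6% of the other multi-isoform genes. Pools of the groups did not overlap in 20 members (13.4%) at 4 h and 28 (18.8%) at 24 h, against 13.3% and 15.9% of all genes tested, and in 21 (14.1%) between the PBS groups, against 11.5%. At 24 h both counts were above those between the PBS groups, and their percentages were above the background. At 4 h the percentages were near the background, and the counts were 34 and 20, against 30 and 21 between the PBS groups. These differences were not tested. At 4 h without LPS 4 h replicate 2 the groups did not overlap in 47 members (31.5%), against 32.6% of all genes tested, and 2 pools overlap with others less easily than 3.

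As a measure over all isoforms of a gene, the share that would have to move from one isoform to another to turn the mean split of one group into that of the other had a median of 14.5% at 4 h, 14.7% at 24 h and 12.1% between the PBS groups. Between single pools within a group it was 22.7%, although means of 3 pools vary less than single pools do.

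**Figure D4:**
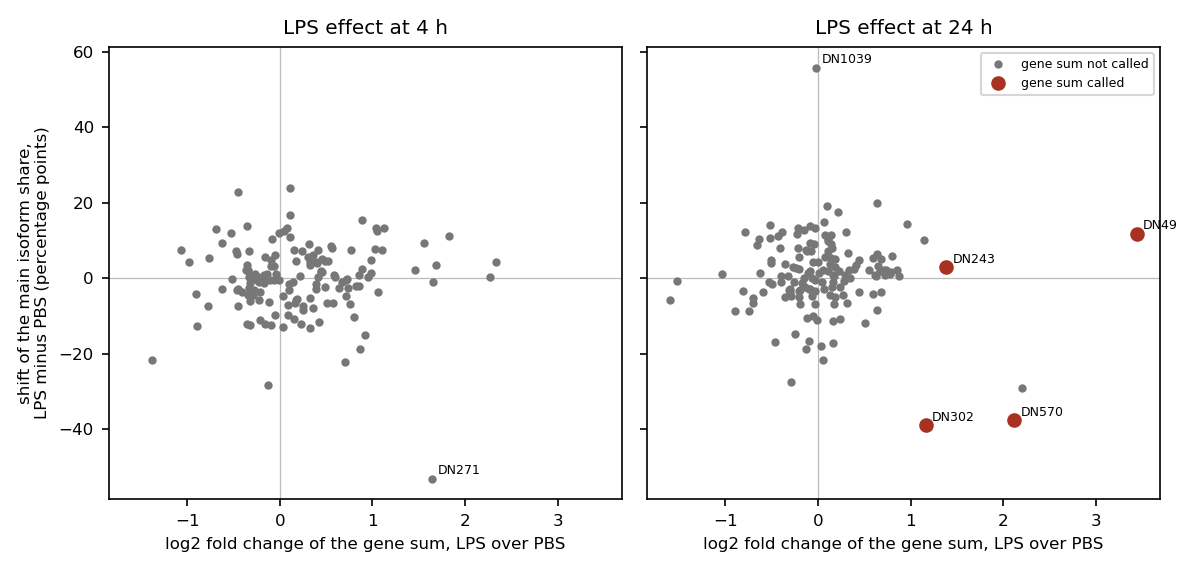
For 149 members, the x axis gives the log2 fold change of the gene sum (LPS over PBS) and the y axis the shift of the main isoform's mean share in percentage points, at 4 h and at 24 h. Red points are gene sums called at 24 h, of which TRINITY_DN570_c0_g1 and TRINITY_DN302_c0_g1 lie low on the y axis. At 24 h TRINITY_DN1039_c0_g1 lies at 55.8 points, with a log2 fold change of its gene sum near 0.

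The size of the shift had little relation to the size of the change of the gene sum across members. Spearman's rho between both sizes was 0.03 at 4 h and -0.08 at 24 h across 149 genes, with Pearson's r of 0.14 and 0.16. In the other multi-isoform genes rho was 0.12 and 0.09. These genes share their libraries, so the values are descriptions. At 24 h, 11 members had both a gene sum and a main isoform share without overlap between groups, 39 the gene sum only, 17 the share only and 82 neither. Of the 11, 6 had a higher sum and a higher share, 2 a higher sum and a lower share, 2 a lower sum and a higher share and 1 a lower sum and a lower share. Both were found in 7.38% of members and in 6.42% of the other multi-isoform genes. At 4 h, 5 members had both (3.36%, against 2.90%), and 28 without LPS 4 h replicate 2 (18.8%, against 19.0%).

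The isoform with the highest mean share differed between LPS and PBS in 24 of 149 members at 4 h and in 25 at 24 h, and it differed between the 2 PBS groups in 21. These are 16.1%, 16.8% and 14.1% of members, against 10.3%, 9.09% and 8.58% of the other multi-isoform genes, and such a difference is called a switch here. There were 31 at 4 h without LPS 4 h replicate 2 (20.8%, against 11.9%). The size of a switch was taken as the larger change of mean share between the groups over their top isoforms. By this measure the largest at 4 h, with 28.3 points, was in TRINITY_DN156_c0_g1. Its isoform i11 held 19.2%, 23.5% and 21.4% in PBS 4 h and 66.4%, 21.7% and 60.9% in LPS 4 h, and the main isoform i10 held 40.0%, 37.9% and 40.5% against 19.0%, 47.4% and 21.3%. LPS 4 h replicates 1 and 3 had switched to i11 and replicate 2 had the split of the controls. In CPM, i11 was at 5.10, 6.23 and 6.66 in PBS 4 h and at 36.1, 6.50 and 37.6 in LPS 4 h, and i10 at 10.6, 10.0 and 12.6 against 10.4, 14.2 and 13.1.

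The gene sum of TRINITY_DN156_c0_g1 was 26.6, 26.5 and 31.1 CPM in PBS 4 h and 54.4, 29.98 and 61.7 CPM in LPS 4 h, and 27.6 to 30.3 CPM in the 6 pools of 24 h. The level of i11 at 24 h was 5.69, 8.28 and 6.25 CPM in PBS and 4.52, 3.31 and 3.21 CPM in LPS. With all pools the gene sum at 4 h did not pass (log2 fold change 0.81, adjusted p = 0.105 by edgeR). When LPS 4 h replicate 2 was left out, it did (1.06 ± 0.15, adjusted p = 0.000446 by edgeR), and the main isoform share had an adjusted p of 0.0734 by limma.

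The second at 4 h, with 26.1 points, was TRINITY_DN355_c0_g1, where i7 held 54.8%, 0% and 0% in PBS 4 h and 0%, 61.0% and 62.5% in LPS 4 h. Isoform i7 was also at 0% in PBS 24 h replicate 3 and at 51.2% to 64.9% in the other pools of 24 h. Both groups at 4 h held pools of both states, and the main isoform share had an adjusted p of 0.770 by limma.

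The largest switch at 24 h was in TRINITY_DN1039_c0_g1. Isoform i16 held 0%, 3.28% and 25.8% in PBS 24 h and 68.2%, 67.6% and 60.8% in LPS 24 h. It held 64.0%, 67.2% and 63.9% in PBS 4 h and 6.90%, 55.4% and 66.7% in LPS 4 h. The pools with the lowest shares of i16 were the 3 of PBS 24 h and LPS 4 h replicate 1. Isoforms i2 and i13 took its place there, with i2 at 64.2%, 55.1% and 0% and i13 at 28.8%, 36.4% and 62.8% in PBS 24 h. The gene sum was 130, 165 and 140 CPM in PBS 24 h and 127, 150 and 151 CPM in LPS 24 h, with a log2 fold change of -0.03 (adjusted p = 0.967 by edgeR). The main isoform share at 24 h had an unadjusted p of 0.0134 and an adjusted p of 0.375 by limma.

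TRINITY_DN302_c0_g1 had the second largest switch at 24 h and was also called for its gene sum. Isoform i11 held 63.2%, 51.0% and 76.6% in PBS 24 h and 21.3%, 20.6% and 32.5% in LPS 24 h, and i12 held 0%, 6.55% and 0% against 39.6%, 43.2% and 29.3%. In CPM, i11 was at 36.1, 32.5 and 54.0 against 36.5, 18.6 and 54.5 and overlapped, while i12 was at 0, 4.18 and 0 against 67.9, 38.9 and 49.2. Isoform i12 was also present in PBS 4 h replicates 2 and 3, at 31.5% and 31.9%. The main isoform share at 24 h had an adjusted p of 0.280 by limma.

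**Figure D5:**
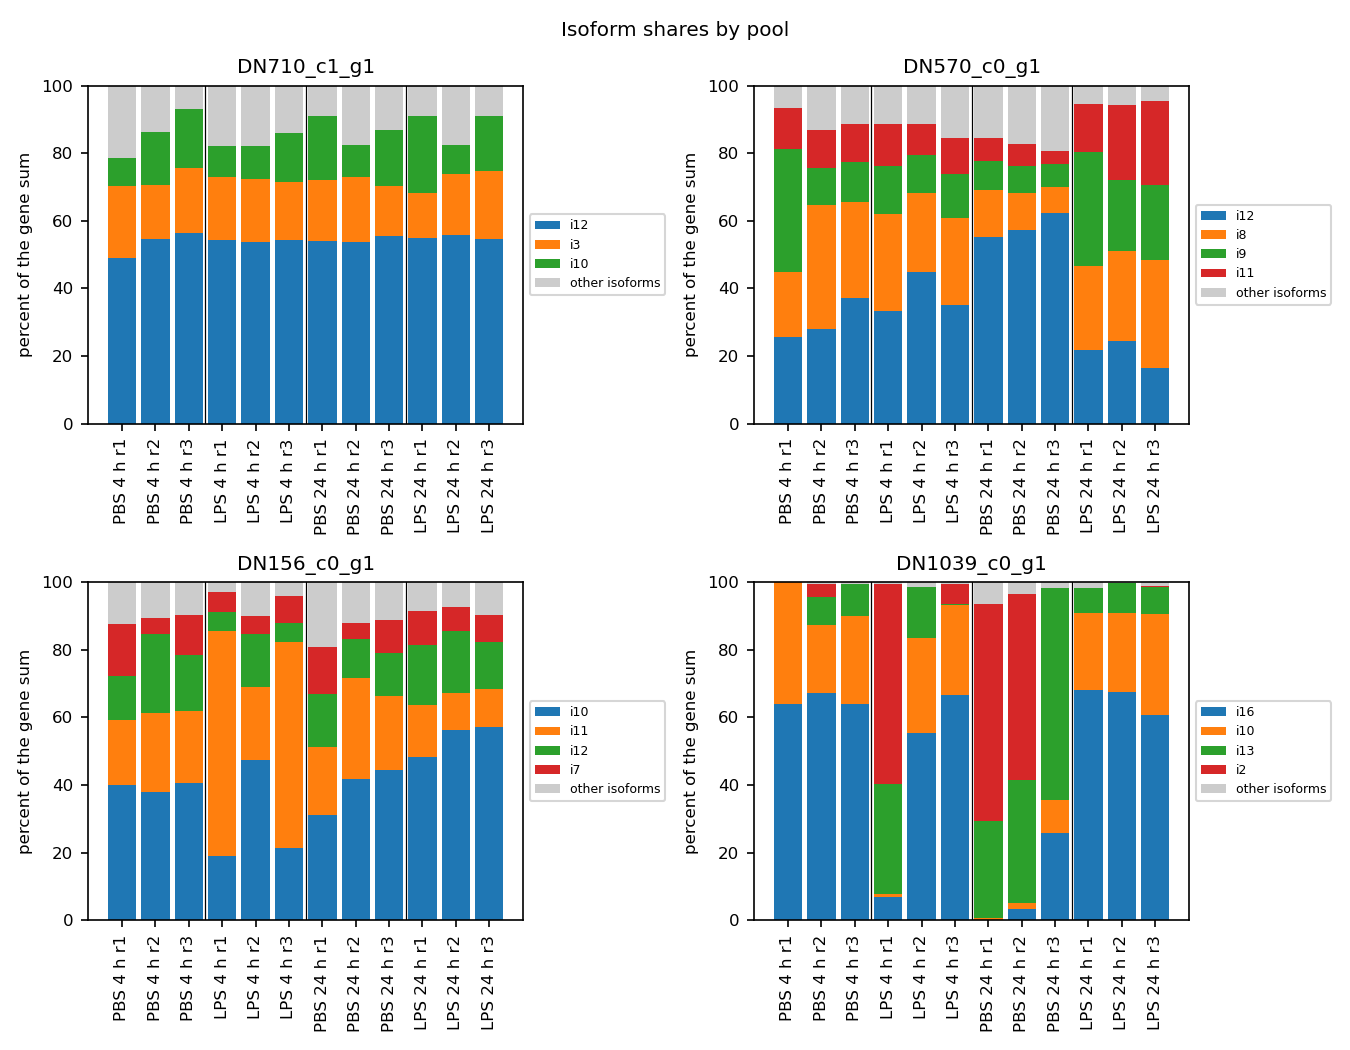
Stacked bars give the isoform shares of 4 members in percent of the gene sum in each of the 12 pools, with isoforms that never reach 10% summed in grey. In TRINITY_DN710_c1_g1 isoform i12 holds 49.0% to 56.5%, while i10 runs from 8.12% to 22.9%. The split of TRINITY_DN570_c0_g1 separates PBS 24 h from LPS 24 h, and that of TRINITY_DN156_c0_g1 differs in LPS 4 h replicates 1 and 3. TRINITY_DN1039_c0_g1 has its lowest shares of i16 in 4 pools.

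Isoform usage, that is, any difference between the isoforms of a gene in their change, was tested with the diffSpliceDGE function of edgeR over 3872 genes. It called 2 of 149 members at 4 h (1.34%, against 0.517% of all genes tested), TRINITY_DN2356_c1_g1 and TRINITY_DN40_c0_g1. Members have more isoforms per gene by the rule, and whether this raises their rate of calls was not tested. At 24 h edgeR called 4 (2.68%, against 1.24%), TRINITY_DN22_c0_g1, TRINITY_DN2356_c1_g1, TRINITY_DN3236_c0_g1 and TRINITY_DN36_c0_g1. An unadjusted p below 0.05 was found there in 24 members (16.1%, against 10.4% of genes). The diffSplice function of limma called 0 members at 4 h, against 0.155% of genes. At an unadjusted p below 0.05 it had 3 members there (2.01%, against 6.92% of genes), and edgeR had 20 (13.4%, against 9.3%). At 24 h limma called 3 (2.01%, against 0.878%), TRINITY_DN36_c0_g1, TRINITY_DN4130_c0_g1 and TRINITY_DN570_c0_g1. TRINITY_DN36_c0_g1 at 24 h was called by both. On simulated data with main isoforms changed, diffSpliceDGE also called 13 unchanged genes among 3771 tested at 4 h and 40 among 3776 at 24 h. There diffSplice called 2 and 7, and at 4- and 8-fold it recovered fewer of the changed genes. Isoforms were drawn independently there, so pairs of a gene in opposite states within a pool were not simulated. Without LPS 4 h replicate 2, edgeR called 4 members at 4 h (2.68%, against 3.41% of genes), TRINITY_DN2356_c1_g1, TRINITY_DN306_c0_g1, TRINITY_DN3236_c0_g1 and TRINITY_DN36_c0_g1, and TRINITY_DN40_c0_g1 had an adjusted p of 0.128. At 24 h it then called 5 (3.36%, against 1.54% of genes), and TRINITY_DN22_c0_g1 had an adjusted p of 0.129.

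In some isoforms the pools of 1 group were split between 0 and a sizeable share. In TRINITY_DN2356_c1_g1 isoform i16 held 12.3%, 15.2% and 0% in PBS 4 h, 0% in all pools of LPS 4 h and of PBS 24 h, and 16.2%, 0% and 14.5% in LPS 24 h. Its usage was called lower at 4 h (adjusted p = 0.0231) and higher at 24 h (adjusted p = 0.0184) by edgeR. In TRINITY_DN40_c0_g1 isoform i28 held 22.4%, 31.8% and 0% in PBS 4 h, 0% in LPS 4 h, 0%, 13.2% and 38.9% in PBS 24 h and 11%, 9.13% and 0% in LPS 24 h. In TRINITY_DN12_c0_g1 isoform i3 held 15.8%, 0% and 32.8% in PBS 4 h and 0% in LPS 4 h, with usage called lower (adjusted p = 0.0126 by edgeR). It held 0%, 38.3% and 0% in PBS 24 h and 0.199%, 20.5% and 13.5% in LPS 24 h. Each of the 3 isoforms thus had 0 counts in 1 pool of PBS 4 h, the group of 4 h in which it was present.

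The usage calls of single isoforms with clearer separation were TRINITY_DN22_c0_g1_i21, described above, with an adjusted p of 0.000355 by edgeR, and TRINITY_DN36_c0_g1_i15, with an adjusted p of 0.0238. TRINITY_DN36_c0_g1_i15 had 128, 143 and 273 counts in PBS 24 h (4.01%, 3.27% and 5.45% of the gene) and 0 counts in all LPS 24 h pools. It was at least 67.9-fold lower against a floor of 3 counts per library. It was also at 0 in LPS 4 h replicates 1 and 3 and had 156 counts in replicate 2. Its gene sum had a log2 fold change of -0.21 at 24 h (adjusted p = 0.603 by edgeR).

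In all, edgeR called the usage of 3 single member isoforms at 4 h, all lower, against 0.117% of isoforms tested (0.0585% higher and 0.0585% lower). At 24 h it called 3, 1 higher and 2 lower, against 0.124% (0.0512% higher and 0.0731% lower). At an unadjusted p below 0.05 there were 122 and 120 member isoforms, against 4.98% and 4.77% of isoforms tested. The third at 4 h was TRINITY_DN4130_c0_g1_i14. There were 5 at 4 h, 2 higher and 3 lower (0.493% of isoforms tested), and 4 at 24 h (0.185%) without LPS 4 h replicate 2. By lowest p among those not called on the higher side, TRINITY_DN271_c0_g1_i7 at 4 h was at 0 CPM in all PBS pools and 65.2, 36.1 and 0.0680 CPM in LPS, and was called without LPS 4 h replicate 2 (adjusted p = 0.0338 by edgeR). TRINITY_DN303_c0_g1_i4 at 4 h was at 0 CPM in all PBS pools and at 0, 30.5 and 0 CPM in LPS, and TRINITY_DN46_c0_g1_i37 at 24 h was at 0 CPM in PBS and 5.55, 0 and 0 CPM in LPS. The last 2 were above 0 in 1 LPS pool each. TRINITY_DN46_c0_g1_i37 was called at 24 h without LPS 4 h replicate 2 (adjusted p = 0.0432 by edgeR).

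Isoforms at 0 counts in all 3 pools of one group and at 10 or more counts in each pool of the other were few. At 24 h, 7 isoforms of 6 members were present in LPS and at 0 in PBS, and 6 isoforms of 5 members were present in PBS and at 0 in LPS. These are 0.169% and 0.145% of member isoforms. Over all transcripts it was 0.061% and 0.0509%. Over the isoforms of all multi-isoform genes, members included, it was 0.167% and 0.143%. At 4 h 0 were present in LPS and at 0 in PBS, against 0.0288% of all transcripts and 0.0811% of isoforms of multi-isoform genes. The other way, 7 isoforms of 7 members were present in PBS and at 0 in LPS (0.169%, against 0.0593% and 0.167%). Between the PBS groups there were 3 present at 24 h and at 0 at 4 h, and 8 the other way (0.0726% and 0.193% of member isoforms). The backgrounds were 0.0458% and 0.0509% of all transcripts, and 0.124% and 0.138% of isoforms of multi-isoform genes. These are counts with no test, from 0 to 7 in the LPS comparisons and 3 and 8 between the controls. With LPS 4 h replicate 2 left out, 20 were present in LPS 4 h alone and 14 in PBS 4 h alone (0.198% and 0.236% of all transcripts), and 2 pools meet the rule more easily than 3.

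The 2 most abundant present in LPS 24 h and at 0 in PBS 24 h were i1 and i18 of TRINITY_DN49_c0_g1, the gene with the largest rise. Isoform i18 had 0 counts in PBS 24 h, 33, 38 and 75 counts in LPS 24 h and 85, 17 and 135 counts in PBS 4 h, and was at least 12.9-fold higher at 24 h. On the other side, TRINITY_DN36_c0_g1_i15 was followed by TRINITY_DN16_c0_g1_i15, with 52, 77 and 44 counts in PBS 24 h and 0 in LPS 24 h, at least 21.5-fold lower. The gene sum of TRINITY_DN16_c0_g1 was 35, 29.8 and 116 CPM in PBS 24 h and 21.4, 22.6 and 16 CPM in LPS 24 h, lower in all LPS pools (adjusted p = 0.252 by edgeR).

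At 4 h, TRINITY_DN12_c0_g1_i1 had 121, 19 and 105 counts in PBS and 0 in LPS, at least 27.6-fold lower. TRINITY_DN6_c0_g1_i60 had 30, 70 and 19 counts in PBS 4 h and 0 counts in all other 9 pools. It held 2.27%, 5.17% and 1.54% of its gene, whose sum was 42.6, 36.6 and 35.3 CPM in PBS 4 h and 58.8, 37.4 and 85.1 CPM in LPS 4 h. The gene was therefore well covered in the pools where this isoform was at 0.

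The LPS effects at 4 h and 24 h were compared with an interaction term. No member's gene sum was called by edgeR (0.0154% of all gene sums), with 35 members at an unadjusted p below 0.05 (17.4% of all gene sums) and 2 called by DESeq2 (3.2% of all gene sums). Without LPS 4 h replicate 2 edgeR called 32 (21.3%, against 16.2% of all gene sums). Of these, 12 had a more positive effect at 24 h and 20 a more negative one, against 9.53% and 6.67% of all gene sums. No member isoform was called for its level (0.0% of all transcripts), with 175 at an unadjusted p below 0.05 (13.9% of all transcripts) and 61 called by DESeq2 (3.21% of all transcripts), and 49 were called without that replicate (9.52% of all transcripts). No member was called for its main isoform share by limma (0.0245% of genes), with 12 at an unadjusted p below 0.05 (7.93% of genes). Usage was called in 5 members by edgeR (3.36%, against 0.594% of genes) and in 0 by limma (against 0.103%). An unadjusted p below 0.05 was found in 26 members by edgeR (17.4%, against 11.1% of genes) and in 11 by limma (against 8.08% of genes). The usage of single isoforms was called in 12 member isoforms, 8 with a more positive effect at 24 h and 4 with a more negative one, against 0.241% of isoforms tested (0.132% and 0.11%), and 148 had an unadjusted p below 0.05 (5.55% of isoforms tested). The 12 came from 8 members. Isoforms i16, i19, i20 and i29 of TRINITY_DN2356_c1_g1 were among the more positive ones, so the calls are not independent.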

How the data were processed

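Spleen RNA of 12 pools was sequenced with a directional kit, per the labels' protocols. The deposited table holds whole-number counts per transcript, and these were treated as the rounded output of a program that estimates counts (expected counts). Trimmomatic 0.39, FastQC, Bowtie2, RSEM and DESeq2 are named in the submitters' processing notes. Neither assembly settings nor strand handling is given in the sources used here.

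Counts were summed per Trinity gene. Gene sums and isoforms that passed edgeR's expression filter were tested over the whole table with edgeR 4.0.16 (quasi-likelihood test, TMM scaling, 1 fit over the 4 groups, Benjamini-Hochberg adjustment, threshold 0.05) in R 4.3.3. Isoform usage was tested with edgeR's diffSpliceDGE and, as an alternative, limma 3.58.1 diffSplice. The main isoform share was tested with limma on the log2 ratio of main to other counts (pseudocount 0.5) in genes of at least 1 CPM. DESeq2 1.42.0 was another alternative. The tests were tried on simulated data, with main isoforms changed 2-, 4- or 8-fold. There diffSpliceDGE called 13 unchanged genes at 4 h and 40 at 24 h, against 2 and 7 by diffSplice. In order of fold, diffSpliceDGE recovered 0, 13 and 35 of 66 changed genes each at 4 h, and 1 of 66, 19 of 64 and 37 of 65 at 24 h. Of the same genes, diffSplice recovered 0, 11 and 29 at 4 h and 1, 14 and 34 at 24 h. The main isoform share test recovered 0 of 67, 9 of 67 and 22 of 66 at 4 h. At 24 h it recovered 0 of 67, 4 of 67 and 21 of 66. The diffSpliceDGE test of single isoforms called 22 and 34 unchanged genes, and recovered 15 at 8-fold at each time. In simulated data with whole genes changed instead, diffSpliceDGE called 5 unchanged genes at 4 h and 0 at 24 h. Usage calls by diffSpliceDGE may therefore include unchanged genes, and many of them where single isoforms change. With whole genes changed, the gene sum test recovered 5 of 67 at 2-fold at 4 h and 6 of 67 at 24 h. At 8-fold it recovered 58 of 66 at each time. Changes of 2-fold were thus mostly missed by all these tests. Tables and figures used Python 3.11.15.

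The named genes and isoforms are the 3 members with the most isoforms, the 2 highest gene sums, the 2 lowest p-values per test, time and direction, the 2 largest switches per time and the 2 most abundant on or off isoforms per time and direction. The members and lists were chosen with earlier results of these data known. Counting error only is covered by the floor of 3 counts. Replicate numbers did not pair the pools.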

Additional observations from a re-analysis of the deposited data

Results flagged for a closer look

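The LPS effect on isoform usage differed between 4 h and 24 h in 5 members by edgeR's diffSpliceDGE interaction test, with Benjamini-Hochberg adjusted p-values of 0.0415 for TRINITY_DN1039_c0_g1, 0.0475 for TRINITY_DN22_c0_g1, 1.81e-14 for TRINITY_DN2356_c1_g1, 0.0417 for TRINITY_DN288_c0_g1 and 0.0153 for TRINITY_DN302_c0_g1. The limma test of the same difference gave adjusted p-values of 0.616, 0.817, 1, 0.665 and 0.698. Without LPS 4 h replicate 2 the edgeR values were 0.0153, 0.359, 1.12e-10, 0.0713 and 0.0263.

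In TRINITY_DN288_c0_g1 isoform i5 held 26.2%, 20.3% and 23.7% in PBS 4 h, 14.1%, 25.4% and 26.4% in LPS 4 h, 26.9%, 21.9% and 24.2% in PBS 24 h and 33.2%, 30.1% and 28.5% in LPS 24 h. The groups overlapped at 4 h and not at 24 h.

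Among single isoforms named above, the usage effect was called different between the times for TRINITY_DN12_c0_g1_i3 (adjusted p = 0.0385 by edgeR), TRINITY_DN22_c0_g1_i21 (adjusted p = 0.00458 by edgeR) and TRINITY_DN2356_c1_g1_i16 (adjusted p = 3.03e-05 by edgeR). Without LPS 4 h replicate 2 only TRINITY_DN2356_c1_g1_i16 of these was called (adjusted p = 0.00031 by edgeR). In all, 12 isoforms of 8 members were called in this comparison, against 0.241% of isoforms tested. Without that replicate the number was also 12, against 0.39%.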

How the results depend on the processing

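With DESeq2 in place of edgeR, 18 member gene sums were called at 4 h, 17 at 24 h and 2 for the difference of effects (7.31%, 8.47% and 3.2% of all gene sums), and 69, 72 and 61 member isoforms (6.0%, 7.35% and 3.21% of all transcripts). With the compared groups alone, 10 gene sums were called at 24 h (4.08% of all). Percentages in brackets in this section are those of all features tested, not of members. Replicate numbers did not pair the pools: deviations of same-numbered pools correlated at -0.259 to 0.146 and those of other pools at -0.168 to 0.215. With the replicate block 3 gene sums (1.45% of all) and 2 isoform levels (0.149%) were called at 24 h, usage was called in 0 members at 4 h (0.207% of genes) and 2 for the difference (0.181%), and the main isoform share in 0 at 24 h (0.0%). Usage was called in 1 member at 4 h (0.232% of genes) and 1 at 24 h (0.284%) with the Simes test, in 1 at 4 h with the CPM filter (0.51%), and by limma in 0 at 4 h and 0 for the difference. Among the 100 Trinity genes with the most isoforms, 2 gene sums were called at 24 h (3.25% of all gene sums). In the same 100, 2 genes were called for the difference in usage (0.594% of genes). With a minimum of 5 counts, 4 isoforms were present in LPS 4 h alone, and with 20 counts 1 was present in PBS 4 h alone, 2 in LPS 24 h alone and 3 in PBS 24 h alone.

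Leaving out 1 replicate at a time gave 0 to 53, 1 to 14 and 0 to 32 gene sums (4 h, 24 h, difference), 0 to 92, 0 to 25 and 0 to 49 isoform levels, 0 to 4, 2 to 5 and 2 to 5 usage calls and 0 to 1, 0 to 1 and 0 to 0 main isoform shares. The highest gene sum and isoform counts came without LPS 4 h replicate 2. Then 22.2%, 6.14% and 16.2% of all gene sums and 14.5%, 3.25% and 9.52% of all transcripts were called. For usage it was 3.41%, 1.54% and 2.85% of genes. Isoforms present in 1 group alone numbered 7 to 20 (LPS 4 h), 11 to 34 (PBS 4 h), 11 to 26 (LPS 24 h) and 8 to 18 (PBS 24 h), since 2 pools meet the rule more easily than 3. Switches numbered 24 to 31 at 4 h and 23 to 33 at 24 h.

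The shift of TRINITY_DN116_c0_g1 at 4 h turned to -0.0863 with the main isoform chosen over the PBS libraries, and the usage of TRINITY_DN303_c0_g1_i4 at 4 h turned to -1.08 without LPS 4 h replicate 2. The first setting changes only which isoform is taken as the main one. The value of -0.0863 thus belongs to another isoform, which was not looked up, and is not a reversed shift of i8. At 4 h, TRINITY_DN303_c0_g1_i4 had counts only in LPS 4 h replicate 2. Of 535 alternatives over 32 named features, 446 kept direction and call, 61 lost the call, 26 gained it and 2 reversed, the value of TRINITY_DN116_c0_g1 being counted among the 2. Leaving out LPS 4 h replicate 2 in the counts of members without overlap was chosen after seeing the data. In the fits each pool was left out in turn, and the focus on LPS 4 h replicate 2 was likewise chosen after seeing the data.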
